A study of Mus musculus with 4 samples.

Results

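The S phase genes described here are 40 genes whose products copy DNA or supply the copying machinery, taken by symbol as a fixed list out of the 32285 genes counted in a single-cell RNA-seq study of mouse lung alveolospheres. All 40 symbols were found. The list holds 9 genes of origin licensing and the replicative helicase, 10 of the polymerases, sliding clamp and fork, 3 of nucleotide supply, 8 of chromatin and histone supply, 7 of DNA repair and 3 G1/S regulators. Alveolospheres are small epithelial spheres grown from alveolar type 2 (AT2) cells, which secrete surfactant and renew the alveolar lining, on a supporting layer of lung fibroblasts that carry the receptor PDGFRα. In the 2 knockdown (KD) libraries, wild-type AT2 cells were grown with fibroblasts in which Yap1 and Wwtr1 (the gene of TAZ) were knocked down, and in the 2 control libraries both partners were wild type. All 4 cultures received doxycycline at 3 µg/mL from day 7 and were collected on day 14. The labels number the replicates within each group and name no separate animal or culture for them, so every p-value below measures the spread between these libraries. Neither the promoter that drove the knockdown nor the number of animals or clones is stated in the labels.

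Before S phase, origins of replication are licensed by loading the MCM helicase onto DNA. In S phase the helicase is activated, primase and DNA polymerase alpha start each strand, and the sliding clamp PCNA holds the other polymerases and the flap nuclease FEN1 on the template. Most of these genes are transcribed in late G1 and S phase under E2F transcription factors, so that their messenger RNAs mark cells that are about to copy, or are copying, their genome. In the healthy adult lung few fibroblasts or AT2 cells cycle, and both do so after injury and in culture. YAP and TAZ are transcriptional co-activators of the Hippo pathway with known roles in growth control.

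The deposited tables sorted 45936 cells into 15 classes. Counts of unique molecular identifiers (UMIs, one per captured RNA molecule) were summed per library over 4 strata: the cycling fibroblast class, the 10 other fibroblast and mesenchymal classes (called non-cycling here), the cycling AT2 class, and the AT2 and transitional epithelial classes (non-cycling epithelium). The cycling fibroblast sums held 214 and 201 cells in KD and 1100 and 1028 cells in control. The non-cycling fibroblast sums held 7258 and 4922 cells in KD and 10941 and 10452 in control. The cycling AT2 sums held 472 and 164 cells in KD and 238 and 205 in control, and the non-cycling epithelial sums held 2117 and 1110 in KD and 1995 and 1544 in control. Library totals were 63758826 and 44284602 UMIs in KD and 71523447 and 70525226 in control. The summed level of 5 proliferation markers (Mki67, Top2a, Cenpf, Cdk1 and Aurkb) was 702 to 1093 CPM (UMIs of a gene scaled to a common total) over the 8 cycling sums and 32.2 to 64.3 CPM over the 8 non-cycling sums. Fibroblast markers summed to 8942 to 13416 CPM in the fibroblast strata and 818 to 3662 CPM in the epithelial strata. AT2 markers summed to 21876 to 76210 CPM in the epithelial strata. These sums describe the strata as built and not each deposited class. In the transitional epithelial class, over all libraries, AT2 markers summed to 1528 CPM. Clusters 19 and 23 of the AT2 class were left out of the epithelium, since their fibroblast markers reached 62.7% and 55.6% of the level in fibroblasts. AT2 markers in the non-cycling fibroblast sums stood at 2493 and 1302 CPM in KD against 895 and 965 CPM in control, and their part in the results below was not tested. Airway secretory markers in the same sums stood at 1.16 and 263 CPM in KD against 1390 and 289 CPM in control. Endothelial and immune markers were at or below 18.6 CPM in every sum. A total of 1073 cell barcodes occurred in more than one library.

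The targeted genes come first. Yap1 stood at 41.0 and 36.6 normalised CPM in KD non-cycling fibroblasts, against 62.2 and 66.6 in control, a log2 fold change of -0.73 ± 0.11 (SE; edgeR quasi-likelihood test, adjusted p = 0.0082). In cycling fibroblasts it stood at 38.1 and 31.3 in KD against 57.5 and 53.7 in control (-0.68 ± 0.19, edgeR adjusted p = 0.0698), which missed the threshold of 0.05. Wwtr1 gave -0.39 ± 0.13 in non-cycling fibroblasts (edgeR adjusted p = 0.0981) and -0.42 ± 0.20 in cycling fibroblasts (adjusted p = 0.311), and neither passed. In non-cycling epithelium, which was not targeted, the log2 fold changes were -0.15 ± 0.16 for Yap1 and -0.31 ± 0.19 for Wwtr1 (edgeR adjusted p = 0.759 and 0.605). In cycling AT2 cells, also not targeted, Wwtr1 stood at 162 and 132 plain CPM in KD against 226 and 216 in control. Those groups did not overlap, so lower Wwtr1 in KD was not confined to fibroblasts. Yap1 there stood at 68.6 and 67.5 plain CPM against 81.7 and 67.7, and its groups overlapped.

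The sequence before Dtl, Pola1, Uhrf1, Hells and Mcm6 is shown because these are the 5 genes, of the 10 that fell in KD non-cycling fibroblasts, with a match to the E2F site through which S phase transcription is known to work, and Mcm2 is shown beside them as a gene with no match. Each window is the 250 bases before the annotated start, from RefSeq on GRCm38.p6, written 5′ to 3′ along the gene's own strand. Capitals mark the E2F matches, an octamer TTTGGCGC, TTTCCCGC, TTTCGCGC or TTTGCCGC on either strand. Dtl lies at chr1:191575545-191575794 (minus strand), Pola1 at chrX:93632156-93632405 (minus), Uhrf1, for the second of its annotated starts, at chr17:56304063-56304312 (plus), Hells at chr19:38930740-38930989 (plus), Mcm6 at chr1:128359706-128359955 (minus) and Mcm2 at chr6:88898781-88899030 (minus).
Dtl: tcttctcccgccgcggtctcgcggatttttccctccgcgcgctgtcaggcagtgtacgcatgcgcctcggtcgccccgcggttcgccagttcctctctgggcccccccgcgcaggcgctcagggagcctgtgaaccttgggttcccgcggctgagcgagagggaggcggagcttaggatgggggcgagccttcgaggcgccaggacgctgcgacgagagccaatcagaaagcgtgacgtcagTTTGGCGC
Pola1: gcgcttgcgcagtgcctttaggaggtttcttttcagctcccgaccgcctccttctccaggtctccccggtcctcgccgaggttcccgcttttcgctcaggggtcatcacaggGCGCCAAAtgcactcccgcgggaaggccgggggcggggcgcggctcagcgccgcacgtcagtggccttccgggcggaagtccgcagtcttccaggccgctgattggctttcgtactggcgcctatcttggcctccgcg
Uhrf1: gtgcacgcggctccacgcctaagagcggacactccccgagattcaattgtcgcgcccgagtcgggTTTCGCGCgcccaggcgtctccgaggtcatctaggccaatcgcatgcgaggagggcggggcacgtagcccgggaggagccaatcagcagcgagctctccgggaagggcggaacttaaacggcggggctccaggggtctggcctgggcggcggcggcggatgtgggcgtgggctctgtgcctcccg
Hells: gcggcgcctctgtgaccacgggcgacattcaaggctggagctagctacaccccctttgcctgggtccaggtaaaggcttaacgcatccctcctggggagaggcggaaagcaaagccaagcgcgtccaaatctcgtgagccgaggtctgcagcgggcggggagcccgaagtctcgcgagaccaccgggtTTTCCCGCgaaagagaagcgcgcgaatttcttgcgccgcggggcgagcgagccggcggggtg
Mcm6: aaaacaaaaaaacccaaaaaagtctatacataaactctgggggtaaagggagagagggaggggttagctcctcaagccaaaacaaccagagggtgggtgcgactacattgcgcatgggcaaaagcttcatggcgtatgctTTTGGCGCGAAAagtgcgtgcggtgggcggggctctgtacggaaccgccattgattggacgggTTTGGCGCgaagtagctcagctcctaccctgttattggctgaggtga
Mcm2: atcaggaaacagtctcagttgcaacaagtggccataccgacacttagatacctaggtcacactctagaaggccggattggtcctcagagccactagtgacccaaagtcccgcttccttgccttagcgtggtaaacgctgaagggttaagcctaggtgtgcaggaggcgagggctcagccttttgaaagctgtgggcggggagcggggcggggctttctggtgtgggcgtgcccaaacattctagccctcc
The match of Dtl begins 8 bases before the start, that of Pola1 138 bases, that of Uhrf1 185 bases and that of Hells 62 bases before it. Mcm6 holds 2 separate runs, which begin 110 and 47 bases before the start, and the first of them is 2 overlapping matches on opposite strands. Of the 40 genes, 30 had a window in the RefSeq table. An E2F octamer was found in the first listed window of 8 of these 30 (26.7%; Uhrf1, whose match lies in its second window, makes 9), against 517 of 27025 genes (1.91%) over the whole table. A CCAAT box, searched as CCAAT on both strands, was found in 21 of 30 (70.0%) against 34.5% of all genes. The cell cycle homology region, searched as TTTGAA on both strands, was found in 5 of 30 (16.7%) against 16.3%. Mcm2 was not among the 10 genes that fell. Of those 10, Clspn, Chaf1b, Rrm2, Mcm3 and Brip1 held no E2F match. Mcm5, Cdc6, Cdca7 and Casp8ap2 held a match and were not called lower. The windows shown therefore do not pair a match with a fall. A match describes these letters in this window and nothing about binding.

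The S phase genes were concentrated in the cycling classes, by amounts that differed widely from gene to gene. Their summed level in cycling fibroblasts was 2036 and 2516 CPM in KD and 1794 and 1866 CPM in control, and in non-cycling fibroblasts 355 and 385 CPM in KD and 444 and 472 CPM in control. In cycling AT2 cells it was 2146 and 2496 CPM in KD and 2130 and 2400 CPM in control, and in non-cycling epithelium 546 and 601 CPM in KD and 518 and 545 CPM in control. These ratios are descriptions with no test, because the deposited clusters were made from the same cells and genes. The cycling over non-cycling fibroblast ratio of each gene, as a geometric mean over the 4 libraries, had a median of 5.69 over the 40 genes, and all 40 ratios were above 1 in each of the 4 libraries.

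The steepest and the flattest ratios were spread over the roles. Rad51ap1, one of the 7 repair genes of the list, was 19.5 times higher in cycling than non-cycling fibroblasts (range over libraries 10.6 to 30.1). Clspn, an adaptor of the replication checkpoint, was 17.9 times higher and E2f8, an atypical E2F that represses E2F targets, 16.5 times higher. Exo1, a repair exonuclease, Dscc1, part of an alternative clamp loader, Uhrf1, which binds newly copied hemimethylated DNA, and Prim1, a primase subunit, followed at 15.5, 14.2, 13.0 and 12.5. At the other end, above Wdr76 at 1.26, Slbp, which binds the stem-loop of histone messenger RNAs, was 2.19 times higher and Casp8ap2, a histone messenger RNA processing factor, 2.43 times higher. Over roles, the median ratio in fibroblasts was 11.7 for the 3 G1/S regulators, 5.94 for nucleotide supply, 5.56 for repair, 5.39 for polymerases, clamp and fork, 5.08 for licensing and helicase, and 4.41 for chromatin and histone supply.

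**Figure D1:**
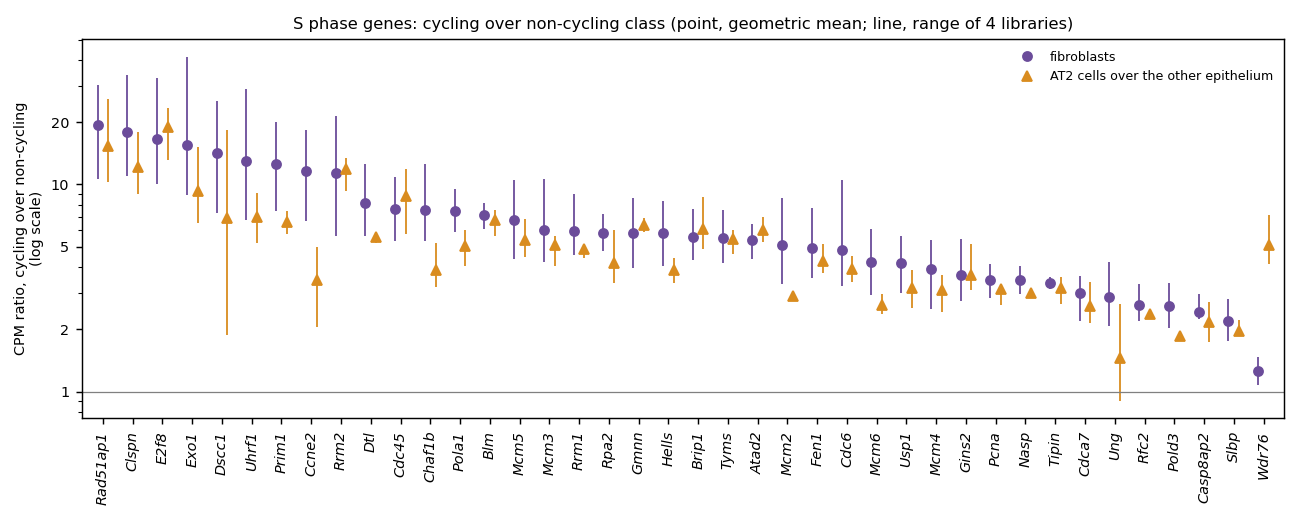
Ratio of each S phase gene's CPM in the cycling over the non-cycling class (log axis), in fibroblasts (circles) and in AT2 cells over the other epithelium (triangles); points are geometric means over 4 libraries and lines span the lowest to the highest library. Genes run from Rad51ap1 at 19.5 to Wdr76 at 1.26 in fibroblasts, and Wdr76 stands at 5.11 in the epithelium.

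Wdr76, a WD-repeat protein, had the lowest ratio of the 40 genes in fibroblasts. Its cycling over non-cycling ratio was 1.26 in fibroblasts (1.08 to 1.48 over libraries) and 5.11 in the epithelium (4.15 to 7.13), and the ranges did not overlap. Its level in non-cycling fibroblasts was 2.56 times that in non-cycling epithelium (2.00 to 3.39). Only Atad2, a chromatin ATPase (1.33; 1.07 to 1.54), and Brip1, a repair helicase (1.42; 1.01 to 1.90), were also higher in non-cycling fibroblasts than in non-cycling epithelium in all 4 libraries, while 27 of 40 genes were lower in all 4. Wdr76 did not differ between KD and control beyond the spread of the libraries in non-cycling fibroblasts (12.4 and 15.0 normalised CPM in KD, 14.6 and 14.2 in control).

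Cycling fibroblasts and cycling AT2 cells held the list at similar summed levels, with a ratio of 0.890 (geometric mean, SD 0.104 over 4 libraries). The median ratio over genes was 0.849, and 21 genes were lower in cycling fibroblasts in all 4 libraries. Only 3 were higher in all 4 libraries. These were Ccne2, encoding cyclin E2 (2.27; 1.30 to 3.28), Rrm1, the large subunit of ribonucleotide reductase (1.12; 1.01 to 1.30), and Tyms, thymidylate synthase (1.10; 1.02 to 1.19). Exo1 stood lowest at 0.424 (0.270 to 0.612), with 193 and 36 UMIs in KD and 71 and 40 in control cycling AT2 cells. Cdca7, a partner of the remodeller HELLS, followed at 0.432 and Gmnn, the licensing inhibitor geminin, at 0.486. In cells with at most 20% mitochondrial UMIs the summed ratio was 0.997.

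Which part of each compartment's S phase RNA lay in its cycling class differed by compartment. In fibroblasts the cycling class held 22.7% and 28.6% of all S phase UMIs in KD and 36.4% and 36.2% in control. In the epithelium it held 55.8% and 44.9% in KD and 39.1% and 45.2% in control. The rest of the S phase UMIs, which is most of them in fibroblasts, came from cells that the deposited annotation does not call cycling. These shares follow how many cells were called cycling, and no test was made of them.

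In cycling fibroblasts, 3 of the 40 S phase genes rose in KD, and 37 of the 40 log2 fold changes were positive. Mcm2, a helicase subunit, had 44.4 and 63.0 normalised CPM in KD against 24.7 and 33.8 in control, a log2 fold change of 0.88 ± 0.21 (SE; edgeR adjusted p = 0.0300). Pcna, the sliding clamp, had 141 and 172 in KD against 77.7 and 104 in control (0.78 ± 0.19, edgeR adjusted p = 0.0317). Fen1, which removes flaps from lagging-strand fragments, had 41.8 and 50.4 in KD against 24.3 and 30.2 in control (0.76 ± 0.20, edgeR adjusted p = 0.0454). Both KD libraries lay above both controls for each of the 3 genes. The 3 of 40 called higher stand beside 1.15% of the 12418 genes tested, and 0 of 40 were called lower (1.16% of all genes), where 1 gene had an unadjusted p under 0.05 in the lower direction and 15 in the higher. Both KD libraries lay above both controls for 22 of 40 genes (22.7% of all genes) and below them for 2 (25.1%). The median log2 fold change was 0.34 over the list and 0.01 over all genes. The list's median was 0.22 without KD replicate 2, 0.48 without KD replicate 1, and 0.19 in cells with at most 20% mitochondrial UMIs. In those cells only 34 of the 40 genes, and 7857 genes in all, could be tested. The 3 calls rest on few libraries: they were lost when KD replicate 1, KD replicate 2 or control replicate 1 was left out. Such a fit leaves 1 library in a group, so the counts it calls are not given here. The count of S phase genes called higher was 0 with the gene length trend removed (0.821% of all genes called higher). It was also 0 with at most 20% mitochondrial UMIs per cell (0.56%). It was 1 with DESeq2 (0.66%). With no filter on low counts it was 0, where 0 of all 21451 genes were called higher. Almost no gene of any kind was called without KD replicate 1 or KD replicate 2 either. The loss of the 3 calls in these fits therefore says nothing particular to the list.

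Among the licensing and helicase genes, all 9 had positive values in cycling fibroblasts, with a median log2 fold change of 0.49. Mcm4 had 68.8 and 88.8 normalised CPM in KD against 37.5 and 60.7 in control (0.68 ± 0.22, edgeR adjusted p = 0.112), and Mcm6 had 66.1 and 77.2 against 59.6 and 53.4 in control (0.34 ± 0.18, adjusted p = 0.369). Neither passed the test, although their groups did not overlap. In nucleotide supply, Rrm1 had 155 and 222 in KD against 136 and 158 in control, Tyms 109 and 131 against 90.6 and 117, and Rrm2, the small subunit of ribonucleotide reductase, reached 0.71 ± 0.20 (adjusted p = 0.0646). The medians were 0.38 for polymerases, clamp and fork, 0.37 for nucleotide supply, 0.18 for chromatin and histone supply, 0.11 for repair and 0.40 for the G1/S regulators.

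Pola1, the catalytic subunit of DNA polymerase alpha, ran the other way in the same cells. It had 69.8 and 68.6 normalised CPM in KD cycling fibroblasts against 92.2 and 88.5 in control (-0.39 ± 0.17, edgeR adjusted p = 0.294), which did not pass the test. The other 2 negative values were Cdca7 (4.76 and 4.54 in KD, 5.44 and 7.15 in control; -0.44 ± 0.40) and Dtl (62.4 and 71.6 in KD, 78.1 and 69.9 in control; -0.14 ± 0.18). Among the most abundant genes of the remaining roles, Atad2 had 216 and 186 in KD and 189 and 158 in control, and Nasp, a histone chaperone, 96.8 and 109 in KD and 88.9 and 96.1 in control. Blm, a repair helicase, had 58.2 and 53.0 in KD and 58.6 and 50.9 in control, and Brip1 49.2 and 54.0 in KD and 49.9 and 45.9 in control. Ccne2 had 21.2 and 25.2 in KD and 18.1 and 14.6 in control. Of these 5 genes, none passed the test, and the groups did not overlap for Nasp and Ccne2.

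The cells behind this comparison differed between the groups in depth and in gene length bias. Median UMIs per cell were 8186 and 8455 in KD cycling fibroblasts against 5358 and 5924 in control, and the median mitochondrial share was 29.2% and 23.0% in KD against 26.6% and 24.4% in control. Across the 12410 genes with a length, log2 fold change fell with gene length (Spearman's rho -0.327, across genes, which are not independent replicates). Over the 40 genes rho was -0.567. The other strata showed the same sign over all genes: -0.238 in non-cycling fibroblasts, -0.364 in cycling AT2 cells and -0.419 in non-cycling epithelium. The median S phase gene spans 18247 bases against 25591 bases for all genes in that set. With the length trend removed the median log2 fold change of the list was 0.32 and 0 genes were called. The class itself was drawn by the authors from the same cells, and the part of that choice in these values was not tested.

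**Figure D2:**
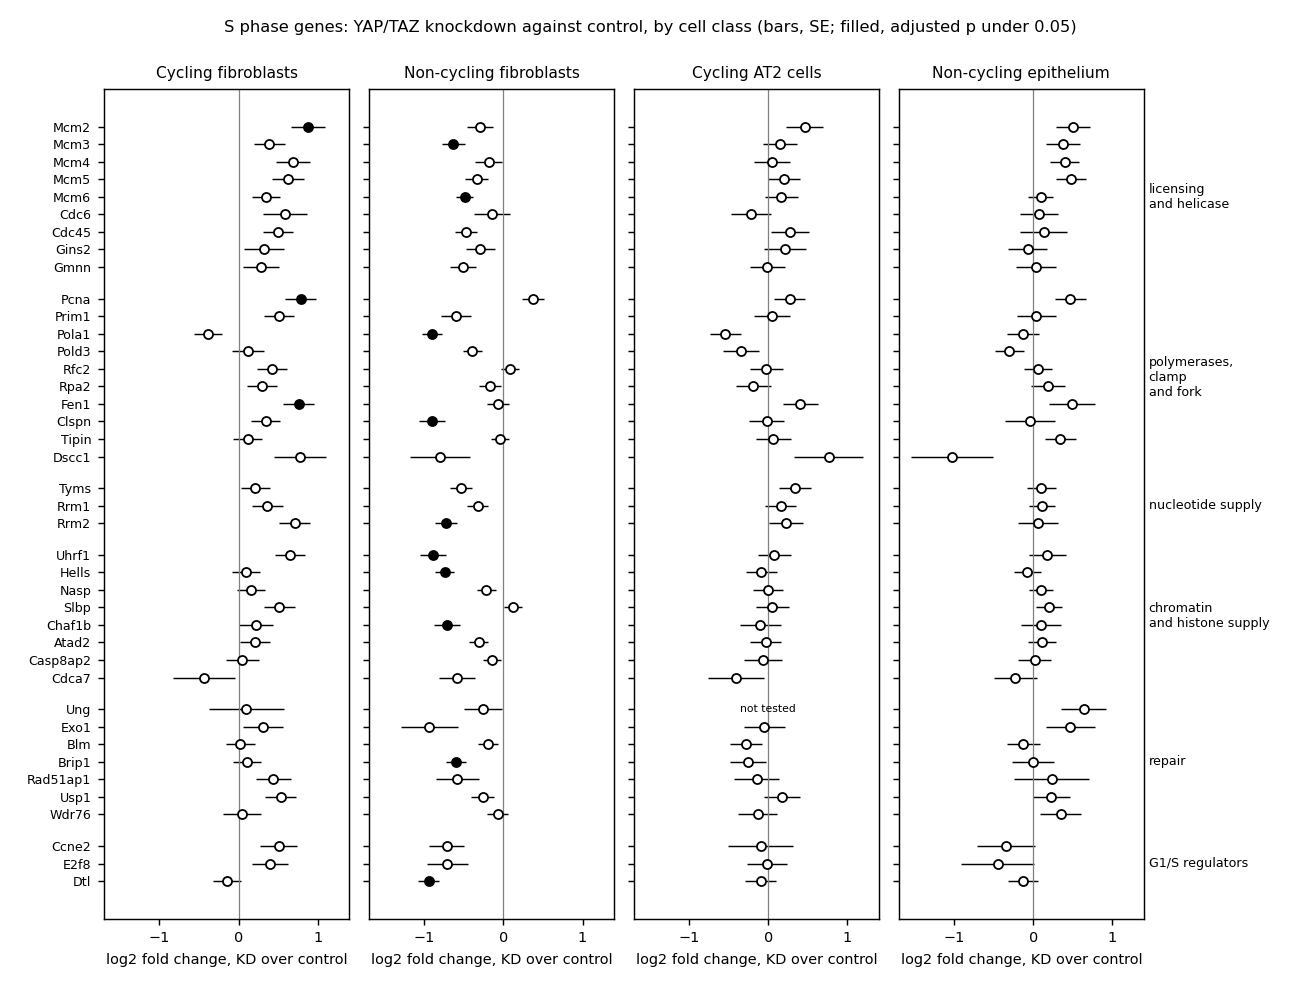
Log2 fold change of KD over control for the 40 S phase genes by role, with a panel for each of 4 cell strata; points are edgeR estimates, bars are standard errors, and filled points have an adjusted p under 0.05. In cycling fibroblasts 37 of 40 values lie above 0 and 3 are filled, in non-cycling fibroblasts 37 of 40 lie below 0 and 10 are filled, and none is filled in either epithelial panel, where Ung was not tested in cycling AT2 cells.

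In non-cycling fibroblasts, 10 of 40 S phase genes fell in KD. That count stands beside 5.99% of 17241 genes tested, and 0 of 40 were called higher (4.23% of all genes), where 1 gene, Pcna, had an unadjusted p under 0.05 in the higher direction and 22 in the lower. DESeq2 and limma voom also called 10 genes lower and 0 higher. Both KD libraries lay below both controls for 31 of 40 genes (29.6% of all genes) and above them for 1 (28.9%). The median log2 fold change was -0.43 over the list and 0.01 over all genes. Leaving out a library left 7 to 15 called, and the count was 6 in cells with at most 20% mitochondrial UMIs. These sums come from the same 4 libraries as the cycling sums.

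Among regulators and polymerases, Dtl, the substrate adaptor of a ubiquitin ligase that destroys licensing factors during S phase, fell to 6.63 and 5.77 normalised CPM in KD, against 11.6 and 12.3 in control (-0.94 ± 0.13, edgeR adjusted p = 0.0064). Pola1 fell to 7.30 and 8.18 in KD, against 13.8 and 15.0 in control (-0.90 ± 0.13, edgeR adjusted p = 0.0064). Clspn fell to 2.40 and 2.13 in KD, against 4.15 and 4.33 in control (-0.90 ± 0.17, edgeR adjusted p = 0.0174). In each case the highest KD library was well below the lowest control. Ccne2, at 1.15 and 1.44 in KD and 2.05 and 2.20 in control, did not pass the test (-0.72 ± 0.22, edgeR adjusted p = 0.0776).

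Among the genes of chromatin copying, Uhrf1 fell to 3.74 and 3.07 normalised CPM in KD, against 5.95 and 6.67 in control (-0.89 ± 0.16, edgeR adjusted p = 0.0174). Hells, a chromatin remodeller, fell to 10.5 and 8.96 in KD, against 16.5 and 16.1 in control (-0.74 ± 0.12, edgeR adjusted p = 0.0126). Chaf1b, a subunit of the CAF-1 histone chaperone, fell to 2.51 and 2.29 in KD, against 3.94 and 3.93 in control (-0.71 ± 0.16, edgeR adjusted p = 0.0354). The histone supply genes Nasp and Slbp were not called. Nasp had 25.0 and 27.4 in KD and 28.5 and 32.4 in control, and Atad2 had 33.0 and 29.0 in KD and 40.8 and 36.3 in control (-0.31 ± 0.12, edgeR adjusted p = 0.136).

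Rrm2 fell to 4.28 and 4.42 normalised CPM in KD, against 7.35 and 7.05 in control (-0.73 ± 0.14, edgeR adjusted p = 0.0181). Mcm3 fell to 6.95 and 6.52 in KD, against 9.28 and 11.6 in control (-0.63 ± 0.15, adjusted p = 0.0384), and Mcm6 to 12.4 and 12.9 in KD, against 17.5 and 18.1 in control (-0.49 ± 0.11, adjusted p = 0.0318). Brip1 fell to 7.27 and 7.18 in KD, against 11.3 and 10.6 in control (-0.60 ± 0.12, edgeR adjusted p = 0.0236). The KD and control groups did not overlap for any of these 4 genes. Mcm4, the other most abundant helicase gene, had 12.5 and 16.8 in KD and 14.7 and 18.7 in control, and these groups overlapped. Tyms (15.8 and 17.7 in KD, 21.4 and 27.1 in control; -0.53 ± 0.14) missed the threshold at an edgeR adjusted p of 0.0547, and Rrm1 (24.4 and 25.2 in KD, 27.7 and 34.3 in control) gave 0.152.

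Pcna was the one S phase gene with both KD libraries above both controls in non-cycling fibroblasts. It had 36.1 and 42.0 normalised CPM in KD against 27.1 and 33.2 in control (0.37 ± 0.14, edgeR adjusted p = 0.127), so it did not pass the test. Its log2 fold changes in the other 3 strata, 0.78 in cycling fibroblasts, 0.27 in cycling AT2 cells and 0.47 in non-cycling epithelium, were also positive, and both KD libraries lay above both controls in each. The 4 values come from the same libraries. PCNA works in repair and other processes besides S phase copying.

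**Figure D3:**
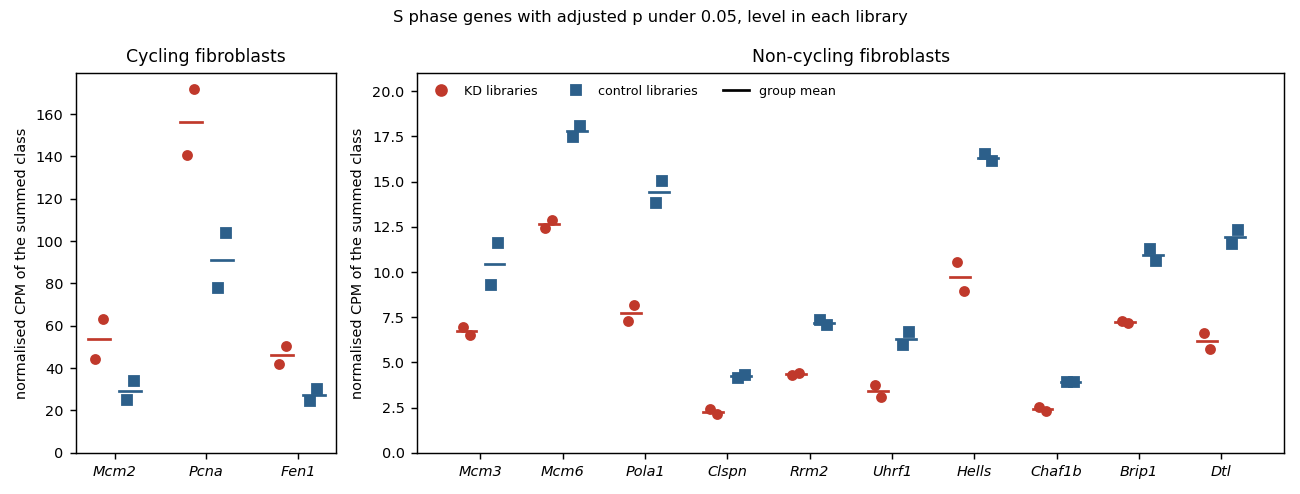
Normalised CPM in each library, KD left (circles) and control right (squares), for the 3 S phase genes called in cycling fibroblasts and the 10 called in non-cycling fibroblasts; short lines are group means. In the left panel both KD points lie above both control points for all 3 genes, and in the right panel both lie below for all 10.

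Other cell cycle genes in the non-cycling fibroblasts were counted beside the list. Of 38 further replication genes, 9 fell and 1 rose (median -0.32), beside 5.99% and 4.23% of all genes tested. E2f7, the other atypical E2F, fell to 0.989 and 0.846 normalised CPM in KD, against 2.36 and 2.20 in control (-1.30 ± 0.22, edgeR adjusted p = 0.0123). Chaf1a, the large CAF-1 subunit, fell to 5.02 and 5.01 in KD, against 7.97 and 8.26 in control (-0.69 ± 0.13, adjusted p = 0.0187), Cdc7, the kinase that fires origins, to 4.30 and 3.86 against 6.45 and 6.27 (-0.64 ± 0.14, adjusted p = 0.0333), and Brca1 to 4.14 and 3.45 against 7.51 and 5.79 (-0.81 ± 0.18, adjusted p = 0.0341). The gene that rose was Rpa3, a subunit of the single-strand binding protein (12.2 and 15.8 in KD, 6.38 and 9.52 in control), named after its value was seen. Of 24 genes of G2 and mitosis, 16 fell (5.99% of all genes) and all 24 values were negative, with a median of -0.81. The ratio of summed S phase to summed G2 and mitosis levels in these sums was 3.03 and 3.43 in KD against 2.26 and 2.24 in control.

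The non-cycling fibroblast sums mix classes whose shares differ between the groups. Wnt4+ Fibroblasts held 1362 and 971 cells in KD against 7 and 32 in control, and SMC, the smooth muscle class, 48 and 5 cells against 724 and 753. Inflammatory Fibroblasts-2, which had the highest S phase level among the 7 classes with at least 50 cells in every library in KD replicate 1 and both controls but not in KD replicate 2, held 175 and 112 cells in KD against 1036 and 1049 in control. Within classes, the summed S phase level was lower in both KD libraries than in both controls in 5 of these 7. In Inflammatory Fibroblasts-2 it was 442 and 444 CPM in KD against 605 and 672 CPM in control. In the largest class, Fibroblasts, it was 358 and 389 CPM in KD against 422 and 436 CPM in control, and in Myofib-like cells 374 and 374 CPM against 463 and 456 CPM. The groups overlapped in Inflammatory Fibroblasts-1 (330 and 411 in KD, 392.1 and 464 in control) and in Unknown Mesenchymal (331 and 429 in KD, 381 and 578 in control).

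**Figure D4:**
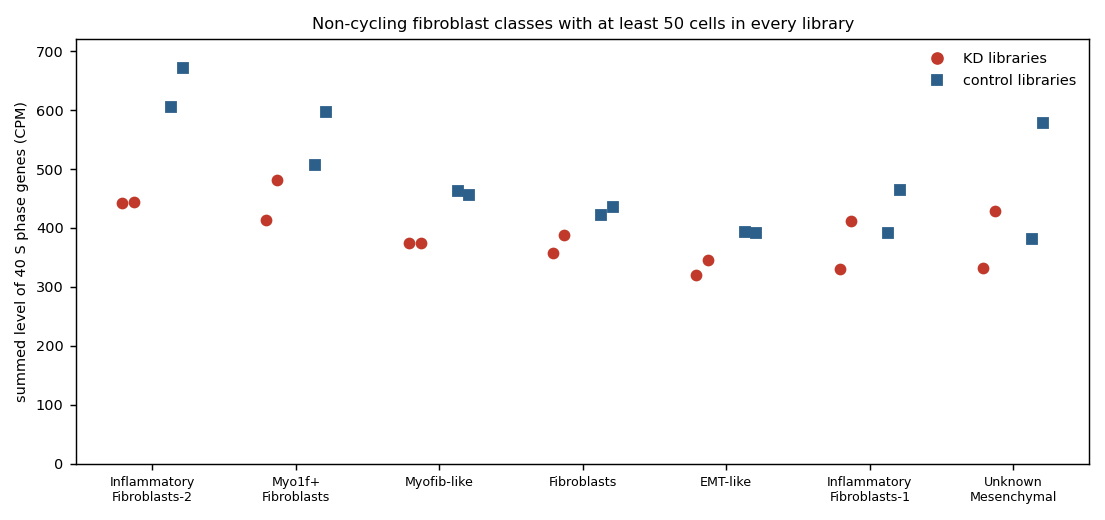
Summed level of the 40 S phase genes (CPM, axis from 0) in the 7 non-cycling fibroblast classes with at least 50 cells in every library, KD left (circles) and control right (squares), 1 point per library. Both KD points lie below both control points in 5 classes, most widely in Inflammatory Fibroblasts-2, and the groups overlap in Inflammatory Fibroblasts-1 and Unknown Mesenchymal.

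Fewer S phase genes were called when classes were weighted equally or when 1 class was taken alone. The equal weighting also used limma on log2 CPM in place of edgeR, and the class taken alone held fewer cells. The part of each in the lower counts was not tested. With the 7 classes weighted equally, 3 of 40 S phase genes were called lower (Hells, Pola1 and Prim1), beside 3.36% of all genes, and the median log2 fold change was -0.36. In the Fibroblasts class alone, 1 of 39 genes tested was called lower (Tyms, -0.62, edgeR adjusted p = 0.0407), beside 4.42% of all genes, and the median was -0.24. None of the 10 genes called over all non-cycling fibroblasts passed there. Dtl stood at -0.57, Pola1 at -0.56 and Rrm2 at -0.49, Hells, Mcm3, Chaf1b, Brip1, Mcm6 and Uhrf1 between -0.44 and -0.38, and Clspn at -0.08 (edgeR adjusted p = 0.894). With cycling and non-cycling fibroblasts summed together, so that no cell was set aside as cycling, 17 of 40 were called lower, beside 6.22% of all genes. Cycling cells made up 2.9% and 3.9% of the cells in these sums in KD, against 9.1% and 9.0% in control. The part of this difference in the 17 calls was not tested.

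In single cells, non-cycling fibroblasts with several S phase UMIs were a small share, lower in KD. After thinning each cell to 2000 UMIs, non-cycling fibroblasts with 3 or more S phase UMIs made up 4.31% (95% exact binomial interval 3.85 to 4.81) and 5.06% (4.46 to 5.71) of cells in KD, against 7.26% (6.76 to 7.78) and 7.48% (6.97 to 8.02) in control. The KD and control intervals did not overlap, and they cover counting error only. Cells shallower than 2000 UMIs were left out, 251 and 43 in KD and 879 and 613 in control. Without thinning the shares were 26.9% and 37.5% in KD against 25.3% and 27.1% in control, with median depths of 4610 and 5745 UMIs in KD against 3649 and 3912 in control. In cycling fibroblasts the thinned shares were 65.7% and 75.9% in KD against 61.6% and 63.0% in control. Within the largest non-cycling class, Fibroblasts, they were 4.6% and 5.4% in KD against 6.7% and 6.1% in control. Both KD shares were again lower, but most of the KD and control intervals overlapped. The interval of KD replicate 2 (4.32 to 6.59) overlapped those of both control libraries. The interval of control replicate 2 (5.37 to 6.91) overlapped those of both KD libraries. The remaining pair of KD and control intervals did not overlap. That class holds fewer cells than the pool, which widens its intervals. No class in these cultures is known to lack these genes, so no background share could be set.

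In the epithelium, grown with the KD fibroblasts but not itself targeted, 0 S phase genes were called. In cycling AT2 cells 39 of 40 genes could be tested, 0 were called in either direction (1.34% of 10102 genes tested), and Pola1 alone had an unadjusted p under 0.05. DESeq2 and limma voom also called 0. Pola1 had 72.7 and 66.0 normalised CPM in KD against 102 and 102 in control (-0.54 ± 0.20, edgeR adjusted p = 0.275), the lowest value of the list there. Dscc1 had the highest (9.82 and 11.8 in KD, 7.70 and 4.50 in control; 0.77 ± 0.44). The median log2 fold change was -0.01, and the groups did not overlap for 5 genes with KD above (18.8% of all genes) and 5 with KD below (19.6%). Ung, the uracil glycosylase, was filtered out on low counts, with 26 and 8 UMIs in KD and 12 and 8 in control.

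In non-cycling epithelium all 40 genes were tested and 0 were called (0.997% of 13642 genes tested), where 5 had an unadjusted p under 0.05, all higher in KD. These were Mcm5, Pcna, Mcm2, Ung and Mcm4. DESeq2 and limma voom also called 0. Mcm2 had 17.2 and 23.8 normalised CPM in KD against 12.9 and 15.9 in control (0.51 ± 0.21, edgeR adjusted p = 0.463). Ung had the highest value (5.29 and 5.72 in KD, 3.09 and 4.04 in control; 0.64 ± 0.28) and Dscc1 the lowest (0.978 and 0.635 in KD, 1.17 and 2.37 in control; -1.03 ± 0.52). The groups did not overlap for 11 genes with KD above (21.9% of all genes) and 3 with KD below (20.7%). The median over the list was 0.10 and that over all genes 0.03. The direction of the list's median turned with the choice of clusters: it was -0.12 with clusters 19 and 23, left out by a limit set after seeing the data, kept in, and 0.28 with cycling and non-cycling cells together.

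Whether the KD effect differed between the compartments was tested directly, as the fibroblast effect minus the epithelial effect with the library as a block and levels normalised over both compartments together. For the non-cycling strata, 5 of 40 S phase genes had a lower effect in fibroblasts (1.13% of 16913 genes tested) and 0 a higher one (0.615%), where 24 and 0 had an unadjusted p under 0.05. DESeq2 called 0 and limma voom 3 in the lower direction. Mcm3 differed by -1.04 ± 0.19 (edgeR adjusted p = 0.0158), with 7.50 and 6.80 normalised CPM in KD and 10.2 and 12.4 in control fibroblasts, and 16.5 and 17.8 in KD and 10.5 and 16.0 in control epithelium. Uhrf1 differed by -1.09 ± 0.22 (adjusted p = 0.0269), with 4.04 and 3.20 in KD and 6.53 and 7.13 in control fibroblasts, and 10.9 and 8.91 in KD and 7.65 and 10.1 in control epithelium. Dtl differed by -0.84 ± 0.17 (adjusted p = 0.0284), with 7.15 and 6.02 in KD and 12.7 and 13.2 in control fibroblasts, and 15.2 and 12.7 in KD and 15.0 and 15.6 in control epithelium. Mcm5 differed by -0.85 ± 0.19 (edgeR adjusted p = 0.0466), with 6.20 and 7.29 in KD and 8.63 and 8.76 in control fibroblasts, and 16.4 and 15.9 in KD and 12.3 and 10.9 in control epithelium. Tyms differed by -0.66 ± 0.15 (adjusted p = 0.0485), with 17.1 and 18.4 in KD and 23.5 and 28.9 in control fibroblasts, and 16.7 and 19.0 in KD and 15.2 and 18.1 in control epithelium. In fibroblasts the groups did not overlap for any of the 5 genes, with KD below. In epithelium they did not overlap for Mcm3 and Mcm5, with KD above, and they overlapped for Uhrf1, Dtl and Tyms. In the fit of non-cycling fibroblasts alone, Mcm5 and Tyms were not called (edgeR adjusted p = 0.178 and 0.0547). The extremes were Exo1 (-1.44 ± 0.49, adjusted p = 0.192) and Dscc1 (0.25 ± 0.60), neither called. Of the 38 other replication genes 1 differed, Cdt1, a licensing factor (-0.85 ± 0.18, adjusted p = 0.0378), and of the 24 genes of G2 and mitosis 4 had a lower effect in fibroblasts. The count of S phase genes was 0 without control replicate 1 or control replicate 2, 2 without KD replicate 1 and 11 without KD replicate 2. It was also 0 with classes weighted equally and 1 in cells with at most 20% mitochondrial UMIs.

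For the cycling strata, 0 of 40 genes differed in effect between fibroblasts and AT2 cells (0.902% of 11869 genes tested), where 9 had an unadjusted p under 0.05, all with a higher effect in fibroblasts. DESeq2 and limma voom also called 0. Pcna came nearest (0.52 ± 0.17, edgeR adjusted p = 0.153), Cdc6, which loads the helicase, had the highest value (0.74 ± 0.32, adjusted p = 0.416) and Tyms the lowest (-0.11 ± 0.18, adjusted p = 0.923). The median difference was 0.35 over the list against 0.05 over all genes, and 0.10 over the list in cells with at most 20% mitochondrial UMIs and 0.19 with no filter on low counts. The ratio of summed S phase to summed G2 and mitosis levels was 0.978 and 0.883 in KD and 0.944 and 0.812 in control cycling fibroblasts, and 0.855 and 0.812 in KD and 0.874 and 0.887 in control cycling AT2 cells, with the groups overlapping in fibroblasts.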

How the data were processed

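The deposited table holds raw UMI counts per gene and cell from the 10x Multiome kit (per the labels' protocols), and the deposited cell table gives each cell's library, cluster, class, percent of mitochondrial UMIs and doublet enrichment ratio. Per the submitters' processing notes the build is GRCm38, also called mm10. Not given in the sources used here are the aligner, the counter, its use of strand, the cell filters, and the counting of reads shared with pseudogenes, which Pcna has. The 45936 cells held at least 533 UMIs and at most 35.0% mitochondrial UMIs, and 53 further columns of the cell table were not used.

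The members and lists were chosen with earlier results of these data known. Counts were summed per library and stratum and tested with edgeR 4.0.16 (glmQLFit, glmQLFTest, TMM, filterByExpr, R 4.3.3), with Benjamini-Hochberg adjustment over all genes tested and a threshold of 0.05; the interactions kept the library as a block. Levels called normalised CPM are TMM-scaled, and the other CPM are plain. Clusters of the AT2 class with fibroblast markers, Fn1 apart, above 30% of the fibroblast level were left out, a limit set after seeing the data. Alternatives were DESeq2 1.42.0, limma voom 3.58.1, RLE factors, no filter, each library left out, a replicate block, doublets, mitochondrial share, gene length (GENCODE M21) and class mixture. The fits were tested on simulated data. The 5% of cells with the highest doublet enrichment were left out only as an alternative; 1309 cells had no such value. Values in every library are given for called members, the 2 most abundant of each role, and the extremes of each fit; of the other replication genes, those with an adjusted p under 0.05 are named, at most 4 per fit by smallest p. The replicate numbers come from the labels and share no stated animal, litter or day.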

Additional observations from a re-analysis of the deposited data

Results flagged for a closer look

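In the edgeR fit, the KD effect differed between non-cycling fibroblasts and non-cycling epithelium, by the test of the difference itself, for 5 S phase genes. That count became 0 with DESeq2 (0.508% of all genes called lower) or equal class weights (0.372%), and 1 at 20% mitochondrial UMIs (0.927%). The test was not rerun with clusters 19 and 23 kept in. The differences in log2 fold change, fibroblasts minus epithelium, were -1.04 for Mcm3, -1.09 for Uhrf1, -0.84 for Dtl, -0.85 for Mcm5 and -0.66 for Tyms, each with an edgeR adjusted p under the threshold of 0.05 given beside it in the results.

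For 16 genes both KD libraries lay above both control libraries in cycling fibroblasts and below them in non-cycling fibroblasts. The same held for 241 of the 12413 genes tested in both strata (1.94%), and the opposite pattern for 0 of the 40 genes and 1.73% of all genes. Each stratum alone already leaned this way, with KD above for 22 of the 40 genes in cycling and below for 31 in non-cycling fibroblasts. The 16 are therefore not a separate finding. This contrast between the 2 strata was not tested, and its libraries are shared. Tipin is among the 16 although both its values are smaller than their SE (0.19 and 0.11). The log2 fold changes in cycling and then in non-cycling fibroblasts were, for licensing and the helicase, Mcm5 (0.63 and -0.34), Mcm6 (0.34 and -0.49), Cdc45 (0.49 and -0.47). For the polymerases and the fork they were Prim1 (0.51 and -0.60), Rpa2 (0.29 and -0.17), Clspn (0.34 and -0.90), Tipin (0.11 and -0.040), Dscc1 (0.78 and -0.80). For nucleotide and histone supply they were Rrm2 (0.71 and -0.73), Uhrf1 (0.65 and -0.89), Nasp (0.16 and -0.22), Chaf1b (0.22 and -0.71). For repair and G1/S control they were Rad51ap1 (0.44 and -0.58), Usp1 (0.53 and -0.26), Ccne2 (0.51 and -0.72), E2f8 (0.40 and -0.71). The cycling class was drawn by the authors from the same cells, and the part of that choice in the contrast was not tested.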

How the results depend on the processing

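Shares in parentheses are of all genes called in the same fit and direction. In cycling fibroblasts the 3 S phase genes called higher (1.15%) became 1 with DESeq2 (0.66%) and 12 with the replicate block (5.52%), which also called 1 lower (5.59%). They became 0 with no filter on low counts (0%), with at most 20% mitochondrial UMIs (0.56%) or with the gene length trend removed (0.821%). Leaving out a library moved the list's median log2 fold change between 0.22 and 0.48. In non-cycling fibroblasts the 10 called lower (5.99%) became 20 with the replicate block (15.7%; and 1 higher, 16.5%), 6 at 20% mitochondrial UMIs (4.9%), 3 with equal class weights (3.36%), and, in alternatives chosen after seeing the data, 1 in the Fibroblasts class alone (4.42%) and 17 with cycling and non-cycling cells together (6.22%). Leaving out a library gave 7 to 15 lower (3.64% to 9.21%) and 0 to 1 higher, and 6 of the 10 genes (Pola1, Clspn, Rrm2, Uhrf1, Hells and Dtl) remained called each time. In cycling AT2 cells the block called 1 lower (2.52%). In non-cycling epithelium leaving out a library moved the list's median log2 fold change between 0.05 and 0.11. In the cycling interaction it moved the median difference between 0.28 and 0.38. In the non-cycling interaction the 5 called lower (1.13%) became 3 with RLE factors (0.834%), limma voom (1.15%) or the length trend removed (0.84%), 0 with DESeq2 (0.508%) or equal class weights (0.372%), 10 with no filter (1.5%), 1 at 20% mitochondrial UMIs (0.927%), 19 with cycling and non-cycling cells together (2.48%), and 0 to 11 when a library was left out (0.127% to 2.91%). At 20% mitochondrial UMIs the cycling fibroblast over cycling AT2 ratio was 0.997 (0.890 with all cells) and the S phase over G2 and mitosis ratio in cycling fibroblasts 0.779 (0.902). The other ratios moved by less than 1 SD over libraries. Over all genes the counts called ranged from 0 to 1379 in cycling fibroblasts (287 as reported) and from 880 to 5561 in non-cycling fibroblasts (1761). The cause of these changes was not tested. Every called gene kept its sign under every alternative run for it. The replicate numbers gave only 2 pairs, the differences between replicates 1 and 2 correlated at 0.147 and 0.25 between groups in cycling and non-cycling fibroblasts, and the block changed no other count of called S phase genes by over 1.5 times. With 2 libraries per group, leaving one out assumes that the lone library varies like the others. The interactions were not fitted with the replicate number, since the library was already the block. Depth limits Ung, Dscc1, Exo1 and Rad51ap1, with as few as 5 UMIs in a sum. It also limits Cdca7, with as few as 9 UMIs in cycling fibroblasts, and Ccne2, with as few as 10 in cycling AT2 cells.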
